A study of Mus musculus with 8 samples.

Results

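Transcripts of 10 fibroblast growth factor (FGF) genes, Fgf1, Fgf3, Fgf7, Fgf8, Fgf9, Fgf10, Fgf12, Fgf13, Fgf15 and Fgf16, were examined among the 20701 gene symbols of an RNA-seq data set from the embryonic mouse heart. Members were chosen by symbol, and where a symbol had several RefSeq transcripts the one with the highest mean count over all libraries was used. The outflow tract and right ventricle (OFT/RV) were dissected from single C57BL/6 embryos at E10.5, and polyadenylated RNA was sequenced from 4 control embryos labelled wild type (CTRL) and 4 embryos labelled Isl1 hypomorph (Isl1_hypo). The hypomorphic mice are a line in which Isl1, a LIM-homeodomain transcription factor gene of second heart field progenitors, is expressed at a reduced level, and they survive to birth. Because the tissue was sequenced in bulk, fewer cells that make a ligand and less ligand RNA per cell cannot be told apart.

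Most FGFs are secreted proteins that bind receptor tyrosine kinases of the FGFR family together with heparan sulphate, and they activate the Ras and MAP kinase pathway in nearby cells. In the embryonic heart, FGF signals from pharyngeal mesoderm and endoderm support the second heart field, the progenitor pool that builds the OFT and RV, while signals from epicardium and endocardium act on the growth of the myocardium. The intracellular members of the family have no secretion signal and instead bind voltage-gated sodium channels.

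Of the 10 ligands, 7 had enough counts to be tested. Fgf9 was higher in Isl1_hypo, at 1.35 on the log2 scale, and Fgf10 was lower, at −0.93. These 2 of 7 tested ligands had an adjusted p under 0.05 (edgeR quasi-likelihood test, Benjamini-Hochberg over all genes), against 0.269% of the 13769 genes tested in either direction, 0.145% in the higher and 0.123% in the lower one. The same 2 ligands had an unadjusted p under 0.05, as 11.9% of all genes did (5.69% higher and 6.17% lower). CPM values of the groups did not overlap for 3 of the 7, against 8.5% of all genes. Fgf1, Fgf3, Fgf8, Fgf12 and Fgf13 did not pass the test, and Fgf7, Fgf15 and Fgf16, with 0 to 24 counts per library and 0 counts in at least 2 libraries each, were removed by the filter on low counts. With 1 library left out in turn, Fgf10 and Fgf9 passed only when Isl1_hypo replicate 3 was the library removed. Neither passed with the globin level of each library as a covariate, which differed between the groups, and the log2 fold changes were then −1.06 for Fgf10 (adjusted p = 0.835) and 1.10 for Fgf9 (adjusted p = 1.0).

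The sequence just upstream of the start site is shown for the genes of these 2 ligands, since they are the members whose level differed. The sequences are those of RefSeq on GRCm38.p6, a later build than the mm9 of the counts, and they run 5′ to 3′ over 250 bases on the plus strand. Capitals mark the core TAAT bound by many homeodomain proteins, or its reverse complement ATTA.
Fgf9, chr14:58072436-58072685: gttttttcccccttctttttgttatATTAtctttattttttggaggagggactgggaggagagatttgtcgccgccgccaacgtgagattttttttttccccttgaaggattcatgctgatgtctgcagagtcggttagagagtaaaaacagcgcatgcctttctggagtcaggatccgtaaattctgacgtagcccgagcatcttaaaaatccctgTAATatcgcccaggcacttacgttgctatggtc
Fgf10, chr13:118714449-118714698: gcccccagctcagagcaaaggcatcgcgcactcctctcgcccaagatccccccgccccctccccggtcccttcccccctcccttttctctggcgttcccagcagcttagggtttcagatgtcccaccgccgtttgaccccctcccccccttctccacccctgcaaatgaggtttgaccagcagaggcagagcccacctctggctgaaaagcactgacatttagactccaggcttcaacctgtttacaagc
The Fgf9 window held 2 matches on both strands together, which began 225 and 33 bases before the start site, and the Fgf10 window held 0. A match to TAAT on either strand is frequent, being present in 54.9% of the 32851 RefSeq promoter windows of this length. The longer word TAATG, which contains TAAT, was found in 23.9% of all windows and in neither of these 2. The Fgf9 window had a GC content of 44.8% and the Fgf10 window one of 61.2%, with a median of 52.4% over all windows.

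The targeted gene and the libraries were examined first. Isl1 (chromosome 13, 117088478 to 117099896, mm9) was lower in all 4 Isl1_hypo embryos, at a mean 20.5% of that in CTRL (log2 fold change −2.29, SE 0.256, adjusted p = 0.0077), although its adjusted p was 0.518 with the globin covariate. Total counts, with 1 transcript per gene, ranged from 29748455 to 46678970 in CTRL and from 18422250 to 33050295 in Isl1_hypo, so that low ligands were counted less precisely in Isl1_hypo. Isl1_hypo replicate 3 stood apart on the first principal component, at 72.0 against −17.7 to 3.97 for the other libraries. Isl1_hypo replicate 1 was the only library with more than 1 CPM (counts scaled to the size of the library by TMM) of the epithelial genes Cdh1, at 15.3 CPM, and Cldn6, at 38.5 CPM, while Shh, a marker of pharyngeal endoderm, had 0 counts everywhere. RNA of Y-linked genes was present in 1 CTRL library (replicate 3) and in 3 Isl1_hypo libraries (replicates 1, 3 and 4), so that embryos of both sexes occurred in each group.

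Markers of the cell types in the dissection were summed for each library and are given here as ranges in CPM, CTRL first. Myocardial markers dominated, with 36993 to 45628 against 38612 to 46419. Markers of second heart field mesoderm summed to 315 to 339 against 262 to 295, mostly Mef2c, which myocardium also expresses. Epicardial markers summed to 54.2 to 342 against 413 to 706, and epithelial markers to 69.1 to 117 against 125 to 312, nearly all of it the keratin genes Krt8 and Krt18 except in Isl1_hypo replicate 1. Endothelium and endocardium gave 733 to 864 against 612 to 791, mesenchyme 1834 to 2702 against 1058 to 3138, neural crest 28.1 to 46.1 against 9.17 to 32.3, neurons 53.6 to 78.6 against 33.5 to 55.6, and macrophages 7.01 to 13.9 against 3.71 to 11.1. Globin transcripts of red blood cells ranged from 2020 to 11896 against 11870 to 25516, a sum in which near-identical globin genes share reads. None of the 53 tested genes in the 9 marker lists other than globin had an adjusted p under 0.05, while 19 (35.8%) had an unadjusted p under 0.05, against 11.9% of all genes (edgeR). Apart from globin, which was used as a covariate, their part in the ligand results was not tested.

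Fgf10 is a ligand of the Fgf3, Fgf7, Fgf10 and Fgf22 subfamily that signals through the IIIb isoform of Fgfr2, and it is a classical marker of second heart field mesoderm. The gene lies on chromosome 13 (119458598 to 119580922, plus strand, mm9), and its start is 2.36 Mb from the end of Isl1 on the same chromosome. Counts of Fgf10 in replicates 1 to 4 were 785, 1016, 1039 and 1216 for CTRL and 238, 332, 513 and 343 for Isl1_hypo. Scaled to depth, the CTRL embryos held 25.1, 25.0, 25.8 and 26.0 CPM, and the Isl1_hypo embryos 12.9, 12.4, 16.2 and 11.9 CPM. The groups did not overlap, and the highest Isl1_hypo value was that of replicate 3, the library that stood apart. Absence of overlap in the lower direction was seen for 4.44% of all genes tested.

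Fgf10 fell from 25.5 ± 0.494 to 13.4 ± 1.95 CPM (SD, n = 4), leaving 52.5% of the level in CTRL. Its log2 fold change was −0.93 (SE 0.143, 95% interval −1.24 to −0.62) with an adjusted p of 0.031, and an exact 2-sided permutation test on log2 CPM returned p = 0.0286, which is the smallest that 4 against 4 embryos allow. By unadjusted p it was gene number 16 of all those tested and number 7 among genes lower in Isl1_hypo. The CTRL embryos were close together, with a coefficient of variation of 1.94%, against 14.6% in Isl1_hypo. Among the embryos with Y-linked RNA, 1 CTRL library held 25.8 CPM and the Isl1_hypo libraries 11.9 to 16.2 CPM, and among those without it the CTRL libraries held 25.0 to 26.0 CPM and the single Isl1_hypo library 12.4 CPM. When each library was left out in turn, the adjusted p lay between 0.00701 and 0.105 and the log2 fold change between −1.04 and −0.88. Only without Isl1_hypo replicate 3 was the adjusted p under 0.05. An annotated antisense transcript, Gm16263, overlaps an exon of Fgf10, and its reads cannot be told apart from those of Fgf10 because strand was ignored in the counting.

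Fgf7, the keratinocyte growth factor, belongs to the same subfamily and is made by mesenchyme (chromosome 2, 125860394 to 125916921). It had 0, 9, 7 and 2 counts in the CTRL libraries and 6, 5, 0 and 18 in the Isl1_hypo libraries. These counts were too few for the test, the groups overlapped, and a count of 0 allowed a level of up to 0.096 CPM in CTRL replicate 1 and 0.0948 CPM in Isl1_hypo replicate 3.

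Fgf3, another secreted ligand of this subfamily, acts in the pharyngeal region and the inner ear (chromosome 7, 152023988 to 152030341). It was close to the limit of detection, with 10, 10, 15 and 22 counts in CTRL and 15, 17, 19 and 16 in Isl1_hypo. At 0.320, 0.246, 0.373 and 0.470 CPM in CTRL and 0.815, 0.637, 0.601 and 0.554 CPM in Isl1_hypo, the groups did not overlap, as for 4.06% of all genes tested in this direction. The log2 fold change was 0.87 (SE 0.558, 95% interval −0.35 to 2.09) and the adjusted p was 0.559. For this gene alone the exact permutation test gave p = 0.0286, again the smallest possible. It used only the spread between embryos and was not adjusted over genes, and the 57 counts of CTRL and 67 of Isl1_hypo leave the size of any difference uncertain.

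Fgf9 is a secreted ligand of epicardium, endocardium and endoderm that acts on the myocardium through the IIIc isoforms of Fgfr1 and Fgfr2. The gene lies on chromosome 14 (58689384 to 58731174, plus strand, mm9). Replicates 1 to 4 had 120, 120, 210 and 215 counts in CTRL and 212, 251, 284 and 362 counts in the more shallowly sequenced Isl1_hypo group. Scaled to depth, the CTRL embryos held 3.84, 2.95, 5.22 and 4.60 CPM and the Isl1_hypo embryos 11.5, 9.41, 8.98 and 12.5 CPM. Every Isl1_hypo embryo was above every CTRL embryo.

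Fgf9 rose from 4.15 ± 0.977 to 10.6 ± 1.69 CPM (SD, n = 4), a fitted 2.55-fold difference. The log2 fold change was 1.35 (SE 0.233, 95% interval 0.84 to 1.86) with an adjusted p of 0.0425, and the exact permutation test gave p = 0.0286. It was gene number 33 by unadjusted p and number 18 among genes higher in Isl1_hypo. Among the embryos with Y-linked RNA the CTRL library held 5.22 CPM and the Isl1_hypo libraries 8.98 to 12.5 CPM, and among those without it the CTRL libraries held 2.95 to 4.60 CPM and the single Isl1_hypo library 9.41 CPM. When each library was left out in turn, the adjusted p lay between 0.0417 and 0.136 and the log2 fold change between 1.22 and 1.48. As for Fgf10, only the fit without Isl1_hypo replicate 3 kept the adjusted p under 0.05. With both Isl1_hypo replicates 1 and 3 left out, an alternative chosen after seeing the data, the log2 fold change of Fgf9 was 1.40 with an adjusted p of 0.111, and that of Fgf10 was −1.07 with an adjusted p of 0.0259.

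**Figure D1:**
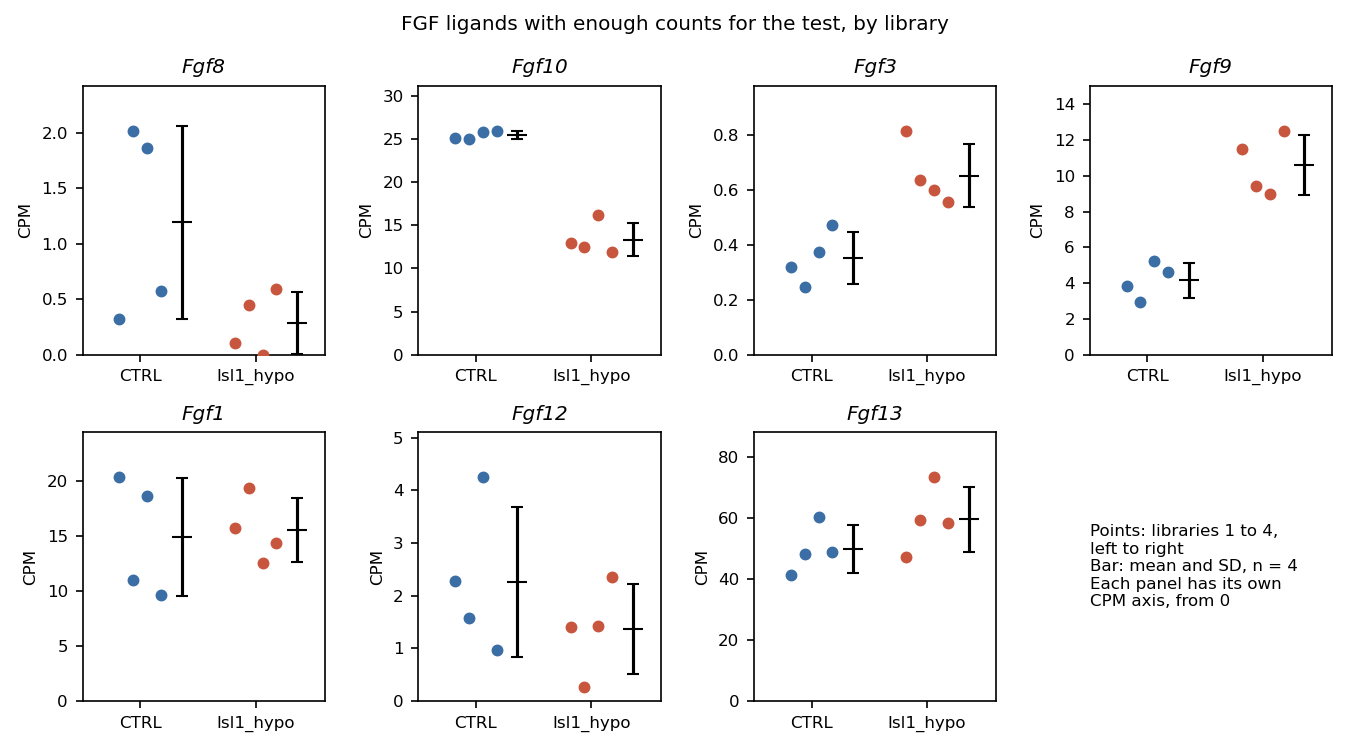
CPM (y axis, from 0, a separate scale in each panel) of the 7 tested FGF ligands in 4 CTRL (blue) and 4 Isl1_hypo (red) libraries. Points are single embryos in the order of replicates 1 to 4, and the bar is the mean with its SD. The groups are separate for Fgf10, Fgf3 and Fgf9 and overlap for the others, and the CTRL points of Fgf10 lie between 25.0 and 26.0 CPM.

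Epicardial markers were also higher in Isl1_hypo, and their values are set beside those of Fgf9. All 6 epicardial genes had a log2 fold change above 0, with a median of 1.07 against 0.0056 over all genes, 5 had an unadjusted p under 0.05, against 5.69% of all genes in this direction, and 0 had an adjusted p under 0.05 (edgeR). For replicates 1 to 4 their sum was 54.2, 219, 203 and 342 CPM (CTRL) and 418, 464, 706 and 413 CPM (Isl1_hypo). In CTRL, replicate 4 had the highest epicardial sum and, at 4.60 CPM, more Fgf9 than replicates 1 and 2 (3.84 and 2.95 CPM) and less than replicate 3 (5.22 CPM), while replicate 1 had the lowest sum and more Fgf9 than replicate 2. In Isl1_hypo, replicate 3 had the highest epicardial sum and the lowest Fgf9 level, and replicate 4 the lowest sum and the highest Fgf9 level. The sum of the epithelial markers was 69.1, 116, 117 and 109 CPM in replicates 1 to 4 of CTRL and 312, 125, 194 and 178 CPM in those of Isl1_hypo. Without Krt8 and Krt18, which other embryonic cells also express, the other 10 markers summed to 1.54 to 3.27 CPM in CTRL, 79.3 CPM in Isl1_hypo replicate 1 and 1.95 to 3.81 CPM in Isl1_hypo replicates 2 to 4, which overlapped with CTRL. The part of the epicardial and epithelial cells in the level of Fgf9 was not tested.

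**Figure D2:**
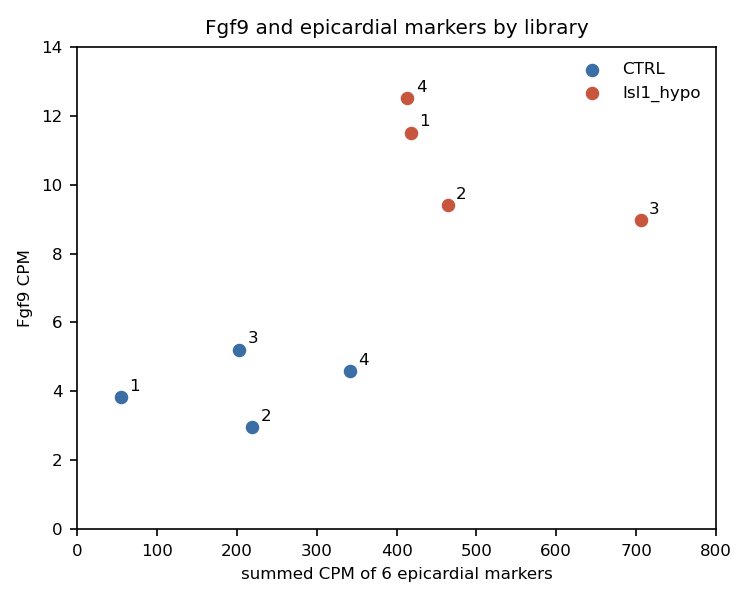
Fgf9 level in CPM (y axis) against the summed CPM of 6 epicardial markers (x axis) in each library, with CTRL in blue and Isl1_hypo in red, and the replicate number beside each point. The groups are separate on both axes. In Isl1_hypo the order of the libraries by Fgf9 is the reverse of that by the epicardial sum. Upk3b is the largest part of this sum, and the single epicardial genes differ in their order. In CTRL the orders differ, with replicate 4 highest in the epicardial sum and replicate 3 in Fgf9.

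Fgf16 is a close relative of Fgf9 and is expressed in the heart at later stages (chromosome X, 102959618 to 102970278). It had 2 counts in CTRL replicate 2, 1 count in Isl1_hypo replicate 2 and 0 counts in the other 6 libraries. A count of 0 allowed levels of up to 0.0641 to 0.163 CPM, depending on the depth of the library, so that a difference was not detectable at this depth.

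Fgf9 and Fgf10 moved in opposite directions, and their ratio was taken within each library, where depth cancels. In replicates 1 to 4, Fgf9 counts were 15.3%, 11.8%, 20.2% and 17.7% of Fgf10 counts for CTRL and 89.1%, 75.6%, 55.4% and 106% for Isl1_hypo. Even the lowest Isl1_hypo ratio, that of replicate 3, was above the highest CTRL ratio. The mean log2 ratio was −2.65 ± 0.331 in CTRL and −0.34 ± 0.396 in Isl1_hypo (SD, n = 4), a difference of 2.31, given without a test because the separation of the groups in both ligands fixes that of their ratio. The pairs of Fgf9 with Fgf16, Fgf10 with Fgf7 and Fgf12 with Fgf13 were not compared in this way, because 1 of the ligands had under 10 counts in some library. The ratio restates the changes of both ligands and is not a further piece of evidence for either.

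Fgf8, a ligand of the Fgf8, Fgf17 and Fgf18 subfamily, is required in the second heart field and pharyngeal arches for OFT formation (chromosome 19, 45811288 to 45817405, minus strand). It had 10, 82, 75 and 27 counts in CTRL and 2, 12, 0 and 17 in Isl1_hypo. This corresponds to 0.320, 2.02, 1.86 and 0.577 CPM in CTRL and 0.109, 0.450, 0 and 0.588 CPM in Isl1_hypo. CTRL replicates 2 and 3 were high, while CTRL replicates 1 and 4 lay below the highest Isl1_hypo value, so that the groups overlapped. The log2 fold change had the largest size among the 7 tested ligands, at −2.03 (SE 0.966), and the widest interval, from −4.15 to 0.08, with an unadjusted p of 0.0583 and an adjusted p of 0.44. The exact permutation test gave p = 0.143, and leaving out single libraries moved the log2 fold change from −2.66 to −1.60 without an adjusted p under 0.05. With the globin covariate it was −0.91 (unadjusted p = 0.525). Its 4 transcripts shared most of their reads, with total counts from 211 to 225, and gave the same picture. Tbx1, an activator of Fgf8 in pharyngeal tissue, was itself at 0.352 to 1.99 CPM in CTRL and 0 to 0.824 CPM in Isl1_hypo, and both genes were at 0 counts in Isl1_hypo replicate 3.

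Fgf1, the acidic FGF, binds all FGF receptors and is made by cardiac muscle among other tissues (chromosome 18, 38998327 to 39089058). It was at 20.3, 11.0, 18.6 and 9.66 CPM in CTRL and 15.8, 19.4, 12.5 and 14.4 CPM in Isl1_hypo. The Isl1_hypo values lay within the CTRL range. Its log2 fold change was 0.06 (SE 0.252, 95% interval −0.49 to 0.61, adjusted p = 0.948), an interval that leaves room for changes of up to 1.53-fold upwards. Its sign turned when CTRL replicate 2, CTRL replicate 4 or Isl1_hypo replicate 2 was left out.

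Fgf15 is the mouse counterpart of human FGF19, an endocrine FGF that is also made in pharyngeal tissue of the embryo (chromosome 7, 152082437 to 152086858, near Fgf3). It had 0, 11, 7 and 24 counts in CTRL and 9, 14, 0 and 0 in Isl1_hypo. The groups overlapped and the counts were too few for the test. The long non-coding gene Gm17685 lies antisense to an exon of Fgf15, so that even these few reads may come from either gene.

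The intracellular members Fgf12 and Fgf13 regulate the gating of sodium channels in neurons and cardiac muscle. Fgf13 (chromosome X, 56315322 to 56821248, minus strand) was at 41.5, 48.1, 60.4 and 49.0 CPM in CTRL and 47.4, 59.4, 73.3 and 58.5 CPM in Isl1_hypo. The groups overlapped, with the highest value in Isl1_hypo replicate 3. A log2 fold change of 0.26 was estimated (SE 0.157, 95% interval −0.08 to 0.61, adjusted p = 0.533). Of this X-linked gene, the embryos with Y-linked RNA held 60.4 CPM in CTRL and 47.4 to 73.3 CPM in Isl1_hypo, and those without it 41.5 to 49.0 CPM in CTRL and 59.4 CPM in Isl1_hypo.

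Fgf12 (chromosome 16, 28160206 to 28445313, minus strand) had 71, 64, 171 and 45 counts in CTRL and 26, 7, 45 and 68 in Isl1_hypo. CTRL replicate 3 was the highest library, and Isl1_hypo replicate 4 lay above 3 of the 4 CTRL libraries in CPM. The log2 fold change was −0.73 (SE 0.633, 95% interval −2.12 to 0.66, adjusted p = 0.673). It lay between −1.13 and −0.23 when single libraries were left out. Fgf12 and Fgf13 have 4 and 3 transcripts in the table, whose counts overlap and are not independent measurements.

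**Figure D3:**
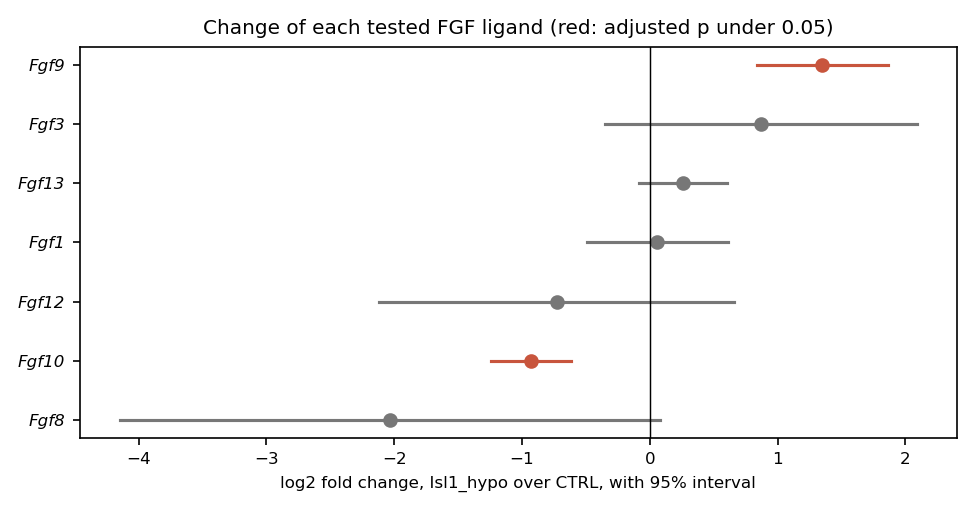
Log2 fold change of Isl1_hypo over CTRL (x axis) for each tested FGF ligand, with its 95% interval from the edgeR quasi-likelihood fit. The intervals of Fgf9 and Fgf10, in red, have an adjusted p under 0.05, and those of Fgf3, Fgf13, Fgf1, Fgf12 and Fgf8 include 0.

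To compare the ligands with each other, levels were expressed per kilobase of transcript (RPKM, computed here from the counts). In CTRL the mean level was 19.9 RPKM for Fgf13, 5.58 for Fgf10, 3.82 for Fgf1, 1.07 for Fgf8, 1.0 for Fgf9, 0.419 for Fgf12, 0.296 for Fgf3, 0.133 for Fgf15, 0.041 for Fgf7 and 0.0041 for Fgf16. Fgf13 did not overlap with Fgf10, Fgf10 did not overlap with Fgf1, and Fgf1 did not overlap with Fgf8, whereas all lower neighbours in this order overlapped. In Isl1_hypo the mean levels were 23.9 RPKM for Fgf13, 3.98 for Fgf1, 2.93 for Fgf10, 2.57 for Fgf9, 0.548 for Fgf3, 0.256 for Fgf8, 0.252 for Fgf12, 0.141 for Fgf15, 0.107 for Fgf7 and 0.0031 for Fgf16. There Fgf1, Fgf10 and Fgf9 overlapped with their neighbours, and the steps without overlap were those from Fgf13 to Fgf1 and from Fgf9 to Fgf3.

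As a share of the summed RPKM of all 10 ligands, Fgf10 accounted for 17.5% ± 2.01 in CTRL and 8.44% ± 0.934 in Isl1_hypo (SD, n = 4). Fgf9 accounted for 3.10% ± 0.567 and 7.52% ± 1.79. Fgf13 made up 61.6% ± 3.37 and 68.6% ± 4.97, so that Fgf10 was the most abundant secreted ligand in CTRL, and Fgf1 had the highest mean among secreted ligands in Isl1_hypo, where it overlapped with Fgf10.

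**Figure D4:**
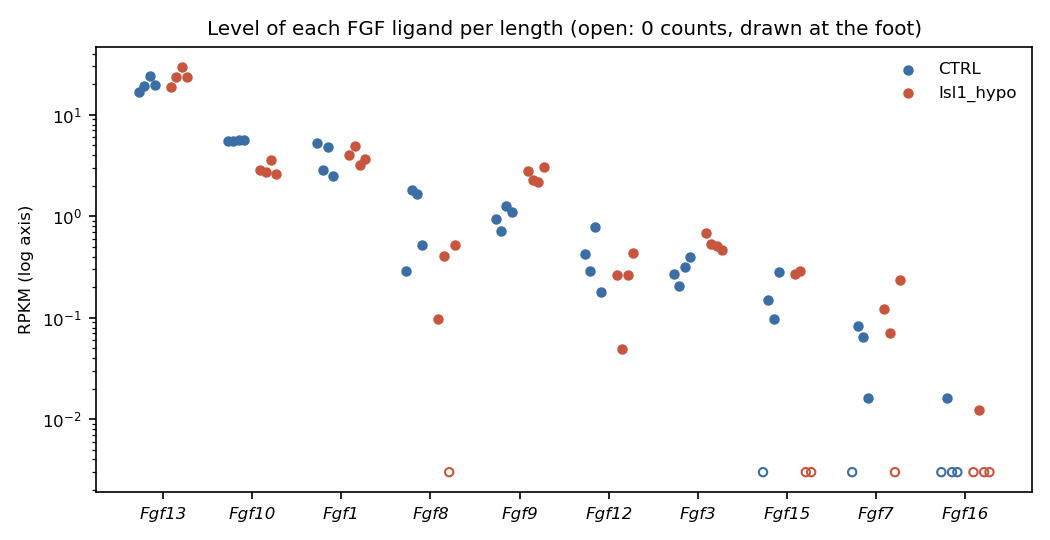
Level of all 10 FGF ligands in RPKM (y axis, logarithmic) in CTRL (blue) and Isl1_hypo (red), 1 point per library, ordered by the CTRL mean. Open points at the foot are libraries with 0 counts, whose height has no meaning. Fgf13 is highest in both groups, and Fgf16 has counts in 1 library of each group.

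The other genes of the FGF pathway were taken from 5 lists. Of the 36 genes tested among them, 1 had an adjusted p under 0.05 (edgeR), beside the 0.269% of all genes. Of the 12 remaining FGF genes, 5 were tested, 4 with a log2 fold change below 0, and none passed, nor had any of them an unadjusted p under 0.05. The smallest unadjusted p-values were those of Fgf5, at −0.90 on the log2 scale (adjusted p = 0.462), Fgf11, at −0.82 (adjusted p = 0.607), and Fgf6, at −0.59 (adjusted p = 0.615). Fgf17, the relative of Fgf8, and Fgf20, the relative of Fgf9, had 0 counts in every library.

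Among the receptors and co-receptors, 5 of 7 genes were tested. Fgfrl1, an FGF-binding membrane protein without a tyrosine kinase domain, was at 59.2, 56.1, 53.5 and 52.3 CPM in CTRL and 32.3, 30.8, 24.9 and 30.5 CPM in Isl1_hypo, with no overlap. It fell by 0.90 on the log2 scale (SE 0.123, adjusted p = 0.0172), and the estimate lay between −0.95 and −0.83 when single libraries were left out, with adjusted p from 0.00959 to 0.0733. The call was lost without CTRL replicate 1, 2 or 3 and without Isl1_hypo replicate 2 or 4, and with the globin covariate, where the log2 fold change was −0.73 (adjusted p = 1.0). The receptor kinases were not called. Fgfr1 was at 30.7 ± 5.36 CPM in CTRL and 25.2 ± 5.83 CPM in Isl1_hypo (log2 fold change −0.28, adjusted p = 0.565). Fgfr2, which holds the receptor isoform for Fgf10, was at 13.8 ± 1.23 and 16.9 ± 3.21 CPM (log2 fold change 0.29, adjusted p = 0.529). Fgfr3 and Fgfr4 were at log2 fold changes of −0.66 and −0.37 (adjusted p of 0.577 and 0.842). The klotho co-receptor genes Kl and Klb, which endocrine FGFs need, had too few counts for the test.

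All 15 feedback and target genes of FGF signalling were tested, 4 with a log2 fold change above 0 and 11 below, and none had an adjusted p under 0.05. An unadjusted p under 0.05 was found for 5, against 11.9% of all genes, 2 of them higher and 3 lower in Isl1_hypo. The smallest were those of Etv4, an ETS factor gene induced by FGF, at −0.66 on the log2 scale (adjusted p = 0.309), the feedback inhibitor gene Spry1, at 0.60 (adjusted p = 0.35), and the AP-1 gene Fosl1, at −1.61 (adjusted p = 0.375). Dusp6, a MAP kinase phosphatase gene commonly read as a gauge of FGF activity, was at 111 ± 8.88 CPM in CTRL and 114 ± 10.1 CPM in Isl1_hypo (log2 fold change 0.03, SE 0.103, adjusted p = 0.924). The 95% interval for Dusp6 ran from −0.19 to 0.26. Over the list the median was −0.12, against 0.0056 for all genes.

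The 9 genes of heparan sulphate synthesis and editing, which set how FGFs are held at the cell surface, were all tested and none had an adjusted p under 0.05. Unadjusted p-values under 0.05 were found for the extracellular sulphatase genes Sulf1 and Sulf2, at −0.32 and −0.31 on the log2 scale (adjusted p of 0.395 and 0.382), 2 of the 9 genes against 11.9% of all genes in either direction and 6.17% in the lower one. Ndst1 followed at −0.46 (adjusted p = 0.479), and the median of the list was −0.07. Ndst1 was at 24.1 CPM in Isl1_hypo replicate 3, the library that stood apart. It was at 55.4 to 59.1 CPM in the other Isl1_hypo libraries and at 58.0 to 77.8 CPM in CTRL.

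**Figure D5:**
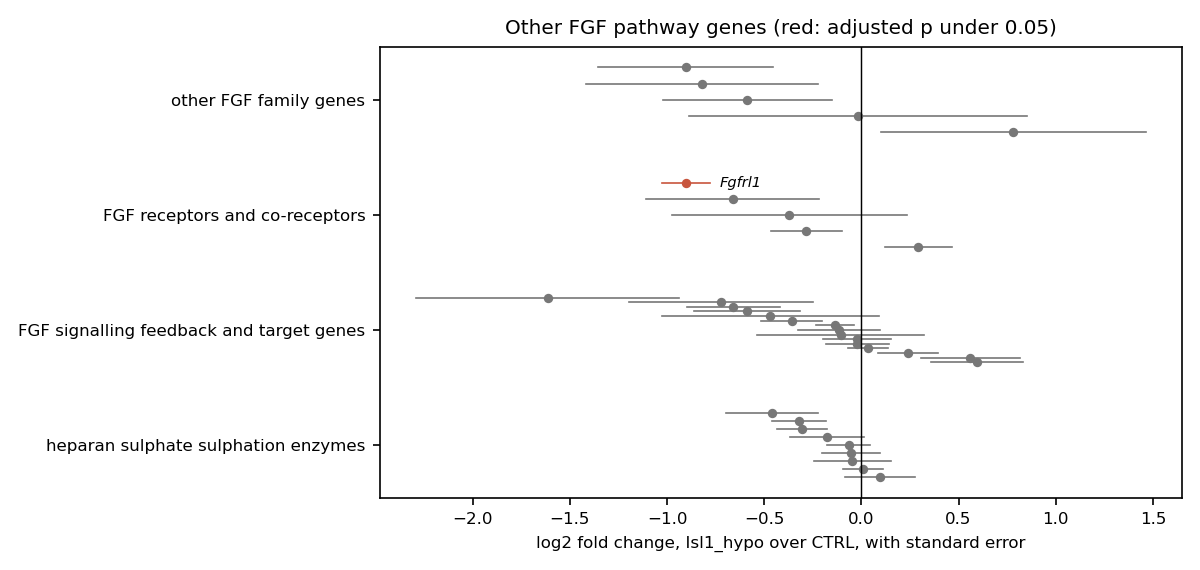
Log2 fold change of Isl1_hypo over CTRL (x axis) with its standard error for the 34 tested genes of 4 FGF pathway lists, 1 point per gene. Fgfrl1, in red, is the only one of these genes with an adjusted p under 0.05.

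The genes whose level followed Fgf9 and Fgf10 most closely over the 8 libraries were found by Pearson's correlation of log2 CPM, given as a description only, since both groups enter it and any gene that differs between them correlates. For Fgf9 these were Pim1 (r = 0.957), a serine/threonine kinase gene, Epyc (r = 0.95) and Lipg (r = 0.944), the endothelial lipase gene. Lipg was at 0.738 to 1.30 CPM in CTRL and 6.20 to 11.4 CPM in Isl1_hypo (log2 fold change 3.07, adjusted p = 0.00377), whereas Pim1 (0.57, adjusted p = 0.481) and Epyc (3.65, adjusted p = 0.205) did not pass the test. For Fgf10 they were Bcl2l15 (r = 0.979), Rbm25 (r = 0.972) and Il13ra1 (r = 0.96), with log2 fold changes of −2.09, −0.35 and −0.62 and adjusted p-values of 0.0577, 0.173 and 0.0997.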

How the data were processed

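The authors aligned reads from a BGISEQ-500 instrument to mm9 with STAR and counted exon reads of RefSeq transcripts with HOMER, ignoring strand. The deposited counts are whole numbers, not normalized. RPKM columns and the results of a DESeq2 comparison stand in the same table and were not used.

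Of 31507 transcripts, the one with the highest mean count was kept for each of 20701 symbols. Genes were filtered with filterByExpr (edgeR 4.0.16, R 4.3.3, minimum count 10), scaled by TMM and compared with the quasi-likelihood test without covariates (glmQLFit, glmQLFTest). P-values were adjusted by Benjamini-Hochberg over the 13769 genes left. The standard error is the log2 fold change divided by the square root of F. The common dispersion was 0.0699. CPM uses TMM-scaled totals, log2 CPM a prior count of 2, and a floor of 3 counts covers counting error only. Single values were compared by exact 2-sided permutation over 70 assignments. Each embryo is 1 replicate. The labels do not name litters, and p-values take the embryos as independent. They set the group difference against the spread between these embryos, which the edgeR test estimates in part from all genes. Same-numbered embryos did not deviate together (correlations of −0.0209 to 0.0219), so numbers were not used as pairs. The pipeline was tested on simulated data.

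The members, the gene lists and the rules were chosen with earlier results of these data known. All 10 ligands were named. Of the pathway lists, genes with an adjusted p under 0.05 were named, otherwise the 3 with the smallest p, and for each called ligand the 3 most correlated genes. Other genes were named after their values were seen (Dusp6, Fgfr3, Fgfr4, Kl, Klb, Tbx1 and markers). Alternatives were RLE factors, no filter, at least 10 counts in every library, the longest transcript, the replicate number as a block, a globin covariate, DESeq2 1.42.0 and leaving out each library, to which leaving out Isl1_hypo replicates 1 and 3 together was added after seeing the data. Coordinates are those of the GENCODE annotation of mm9. Results of 1 of the 5 pathway lists are included in the counts and are otherwise not reported here. RefSeq promoters were found for 6 of the 10 ligands.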

Additional observations from a re-analysis of the deposited data

How the results depend on the processing

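With 4 embryos per group and 3 ligands under the filter, only large changes of low ligands could be seen. RLE factors, no filter and the longest transcript changed none of the calls of ligands or of Isl1. A minimum of 10 counts in every library also changed none, but left Fgf8 and Fgf12 untested. DESeq2 called 319 genes instead of 37, 2 of the 10 ligands and 2 pathway genes, Fgfrl1 among them.

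The globin covariate was the mean log2 CPM of the globin genes in each library. With it, 0 genes, 0 ligands and 0 pathway genes had an adjusted p under 0.05 (edgeR, with 499 genes at an unadjusted p under 0.05). The log2 fold changes were then −2.30 for Isl1 (adjusted p = 0.518), 1.10 for Fgf9 and −1.06 for Fgf10 (unadjusted p of 0.0165 and 0.000667). The ligands without a call were at 0.59 for Fgf1, 0.45 for Fgf3, −0.91 for Fgf8, −0.35 for Fgf12 and 0.05 for Fgf13. Globin differed between the groups, and the covariate and the group cannot be told apart fully. Without Isl1_hypo replicates 1 and 3 together, 1 ligand and 2 pathway genes passed, and Fgf9 was at 1.40.

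The labels do not name litters, so it is not known whether the replicate numbers pair the embryos. The edgeR fit with the replicate block left 0 genes, 0 ligands and 0 pathway genes (1582 genes at an unadjusted p under 0.05). The log2 fold changes were then −2.29 for Isl1 (adjusted p = 0.0722), 1.37 for Fgf9 and −0.94 for Fgf10. The mean within-number difference of the Fgf9 to Fgf10 log2 ratio was 2.31, which by arithmetic equals the difference of the group means.

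With single libraries left out, 4 to 48 genes, 0 to 2 ligands and 0 to 2 pathway genes were called. Log2 fold changes ranged from −2.46 to −2.14 for Isl1, 1.22 to 1.48 for Fgf9 and −1.04 to −0.88 for Fgf10. The difference in log2 ratio ranged from 2.17 to 2.48. Fgf1, never called, changed sign to −0.06 without CTRL replicate 2, −0.10 without CTRL replicate 4 and −0.07 without Isl1_hypo replicate 2, within a range of −0.10 to 0.24.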
